A study of Canis lupus familiaris with 36 samples.

Results

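MTSS1, AKAP12 and NEBL are 3 genes whose proteins meet the actin cytoskeleton, and they are described here by their read counts in CLBL-1, a B-cell lymphoma line of the dog. They were taken as 3 of the 30424 genes of the count file, under the Ensembl identifiers ENSCAFG00000001050 (MTSS1), ENSCAFG00000000419 (AKAP12) and ENSCAFG00000004130 (NEBL). MTSS1 and AKAP12 were chosen by their log2 FC (log2 fold-change) between the combined drugs and the solvent control at 48 h in these libraries, where they stood among the genes with the largest rise and the largest fall. The values by which NEBL was chosen are not recorded. All values of the 3 genes at 48 h are therefore given as a description without a test. Results at 24 h and 72 h were known as well when the genes were chosen. The p-values and ranks at these times are therefore not independent of the choice.

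The line is an established one and comes from a diffuse large B-cell lymphoma. Cells were incubated for 24, 48 or 72 h with 1 µM ibrutinib (Ibr), an inhibitor of Bruton's tyrosine kinase, with 5 µM AS-605240 (AS), an inhibitor of PI3K gamma, with both (Ibr + AS), or with the solvent DMSO alone. The drugs were dissolved in DMSO, so every group contained it, and the DMSO group held it at the concentration of Ibr + AS. Each of the 12 groups has 3 libraries, from cells of this 1 line at the passages p121, p126 and p128, which makes 36 libraries. Replicates are therefore passages of 1 line. Passage is a term of the fit, so p-values measure how differences between groups vary across these passages. That spread is estimated over all groups of a fit together.

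MTSS1 encodes a protein that binds both actin monomers and the inner face of the plasma membrane, which it bends outwards into protrusions. AKAP12, also called gravin or SSeCKS, is a scaffold below the membrane that holds protein kinase A, protein kinase C and other signalling proteins near cortical actin. NEBL encodes nebulette, known from the Z-discs of heart muscle, and from the same gene a shorter actin-binding protein of other cells. Counts are per gene and do not separate such isoforms. B cells remodel cortical actin when the B-cell receptor is engaged, and both Bruton's tyrosine kinase and PI3K act downstream of that receptor.

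The total count per library ranged from 9941919 to 14703839 reads with a median of 11888025. Markers of B cells that could be named, TNFRSF13C and DLA-DRA, were at 70.5 to 308 and at 2090 to 4710 CPM (reads after scaling to the size of each library), while TCF7 and CD226, known from T cells, were at 0.314 and 0.682 CPM at most. These were 2 of 11 listed B-cell and 2 of 9 listed T-cell markers. Of 6 listed myeloid markers LYZ was at 65.4 to 314 CPM and TREM2 at 0.0934 CPM at most, and none of 5 fibroblast markers could be named. One library, Ibr 72 h p128, was left out of the study's own tests as an outlier and is left out here unless stated, so that Ibr 72 h has 2 libraries in the fit. The label of DMSO 24 h replicate 3 gives p126 in one field and p128 in another, and p128 was used. In bulk RNA, a change in the share of cells that hold a transcript and a change in the amount per cell cannot be told apart.

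The genes were of low to moderate abundance. MTSS1 had 45 to 683 reads per library, AKAP12 10 to 141 and NEBL 6 to 74. Over the 36 libraries the highest CPM was 20.7 times the lowest for MTSS1, 11.6 times for AKAP12 and 11.9 times for NEBL. Counting error alone is wide at the low end. The 6 NEBL reads of AS 72 h p121 have an exact Poisson 95% interval of 2.2 to 13.1 reads, the 10 AKAP12 reads of Ibr + AS 24 h p121 one of 4.8 to 18.4, and the 45 MTSS1 reads of DMSO 24 h p126 one of 32.8 to 60.2. These intervals cover counting error only.

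**Figure D1:**
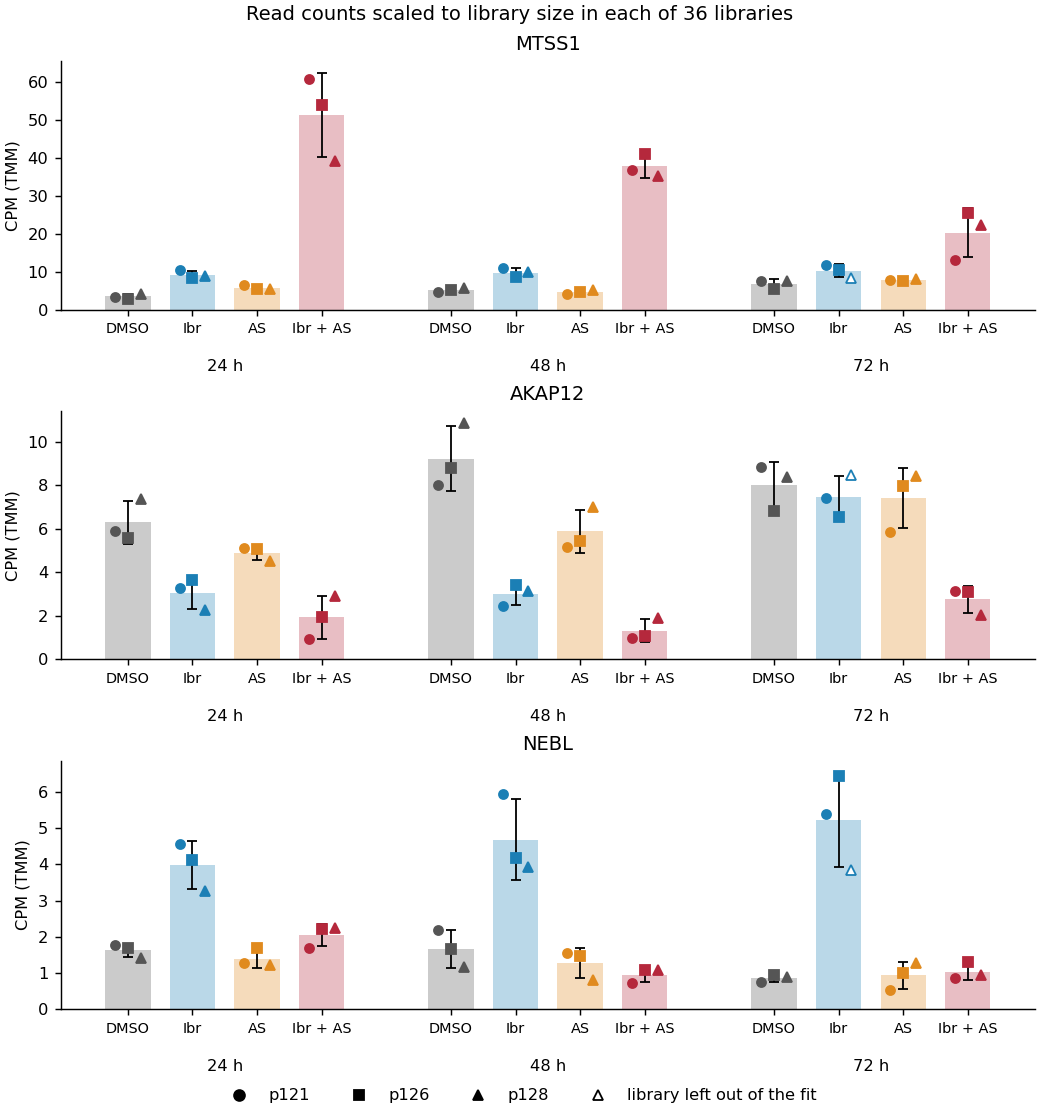
CPM (read counts scaled to library size with TMM factors, linear axes from 0) of MTSS1, AKAP12 and NEBL in each library, by treatment and incubation time. Symbols are passages, bars are means of the 3 libraries and error bars are SD, and the open symbol is the Ibr 72 h library left out of the fit. MTSS1 is highest in Ibr + AS at every time, AKAP12 is lowest there, and NEBL is highest in Ibr.

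MTSS1 was the gene with the widest range, and Ibr + AS held its highest values. At 24 h, DMSO libraries of p121, p126 and p128 were at 3.46, 2.95 and 4.05 CPM, and Ibr + AS libraries were at 60.9, 53.9 and 39.1 CPM. Ibr libraries were at 10.3, 8.46 and 8.90 CPM and AS libraries at 6.50, 5.33 and 5.55 CPM. All 9 treated libraries lay above all 3 DMSO libraries, and the 4 groups did not overlap with each other. Such separation, here and below, was not counted over all genes and is a description only. The mean was 3.48 ± 0.551 CPM in DMSO (SD, n = 3) and 51.3 ± 11.1 CPM in Ibr + AS.

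Relative to DMSO, MTSS1 rose with Ibr + AS at 24 h by a log2 FC of 3.87 (SE 0.19, 14.6-fold, edgeR quasi-likelihood test with Benjamini-Hochberg adjusted p = 5.58e-20), which placed it at rank 133 from the top among 18670 genes tested. With Ibr it rose by 1.40 (SE 0.21, 2.65-fold, adjusted p = 9.79e-06). With AS the log2 FC was 0.73 (SE 0.23, adjusted p = 0.0765), which did not pass. That call turned to passed without p128 (0.83, adjusted p = 0.0335), with DESeq2 (adjusted p = 0.0304) and with only the 2 groups compared in the fit (adjusted p = 0.000808). Ibr + AS was also higher than Ibr by 2.47 (SE 0.17, adjusted p = 2.44e-14) and higher than AS by 3.14 (SE 0.18, adjusted p = 2.24e-17).

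At 48 h, MTSS1 was at 4.61, 5.20 and 5.63 CPM in DMSO and at 36.9, 41.2 and 35.2 CPM in Ibr + AS. Ibr libraries were at 10.9, 8.61 and 9.87 CPM and AS libraries at 4.11, 4.67 and 5.14 CPM. Ibr + AS and Ibr lay apart from DMSO without overlap, whereas AS overlapped with DMSO. The log2 FC against DMSO was 2.87 for Ibr + AS, 0.94 for Ibr and -0.13 for AS.

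At 72 h, the distance between the groups was smaller. DMSO libraries were at 7.62, 5.42 and 7.56 CPM and Ibr + AS libraries at 13.03, 25.5 and 22.2 CPM. Ibr libraries were at 11.8, 10.5 and 8.47 CPM, the last being the library left out, and AS libraries at 7.93, 7.58 and 8.12 CPM. MTSS1 was higher than in DMSO by 1.54 in Ibr + AS (SE 0.18, 2.91-fold, adjusted p = 5.09e-09) and by 0.69 in Ibr (SE 0.21, adjusted p = 0.0174), or 0.56 with all 36 libraries (adjusted p = 0.0388). With AS the log2 FC was 0.20 (95% interval -0.20 to 0.60, adjusted p = 0.653).

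The p121 library of Ibr + AS 72 h, at 13.03 CPM, stood close to the Ibr library of its passage. Within passages, Ibr + AS exceeded Ibr at 72 h by 0.14 on the log2 scale at p121, by 1.28 at p126 and by 1.38 at p128, the last with the Ibr library left out of the fit. The fitted log2 FC of Ibr + AS against Ibr was 0.85 (SE 0.20, adjusted p = 0.00357). It was 1.20 without p121, and without p126 it was 0.57 and no longer passed (adjusted p = 0.0890). Against AS it was 1.34 (SE 0.18, adjusted p = 3.03e-07).

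The response of MTSS1 to Ibr + AS became smaller with time. The log2 FC against DMSO was lower at 72 h than at 24 h by a difference of -2.33 (SE 0.27, adjusted p = 7.30e-09). Within Ibr + AS, MTSS1 fell from 24 h to 72 h by 1.35 on the log2 scale (SE 0.16, adjusted p = 4.86e-08), while in DMSO it rose over the same time by 0.96 (SE 0.16, adjusted p = 3.22e-08). The fall did not pass with only the 2 groups compared (-1.36, adjusted p = 0.0651). For Ibr the effect changed by -0.71 (SE 0.30, adjusted p = 0.121) and for AS by -0.53 (SE 0.30, adjusted p = 0.359). The change for Ibr passed with all 36 libraries (-0.85, adjusted p = 0.0465) and with only the groups compared (-0.68, adjusted p = 0.0103).

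AKAP12 took the opposite course, with the lowest values in Ibr + AS at each time. At 24 h, DMSO libraries of p121, p126 and p128 were at 5.93, 5.57 and 7.39 CPM and Ibr + AS libraries at 0.940, 1.97 and 2.90 CPM. Ibr libraries were at 3.30, 3.65 and 2.25 CPM and AS libraries at 5.13, 5.10 and 4.51 CPM. All 9 treated libraries lay below all 3 DMSO libraries, but Ibr + AS and Ibr overlapped, and p128 was lower in Ibr than in Ibr + AS.

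Relative to DMSO at 24 h, AKAP12 fell with Ibr + AS (log2 FC -1.69, SE 0.22, 3.23-fold lower, adjusted p = 4.27e-10) and with Ibr (-1.01, SE 0.21, 2.01-fold lower, adjusted p = 0.000254). With AS the log2 FC was -0.35 (95% interval -0.73 to 0.03, adjusted p = 0.450). Ibr + AS was lower than AS by a log2 FC of -1.34 (SE 0.23, adjusted p = 2.29e-06). Against Ibr the log2 FC was -0.68 (SE 0.25, adjusted p = 0.0451), and the passages differed, with -1.73 at p121, -0.86 at p126 and 0.35 at p128. Without p121 it was -0.33 and without p126 -0.54, and neither passed. Without the passage term, the replicate block of the fit, it was -0.66 (adjusted p = 0.0803).

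At 48 h, AKAP12 was at 8.01, 8.81 and 10.9 CPM in DMSO and at 0.988, 1.07 and 1.93 CPM in Ibr + AS. Ibr libraries were at 2.44, 3.44 and 3.16 CPM and AS libraries at 5.18, 5.45 and 7.02 CPM. None of the 4 groups overlapped with another. The log2 FC against DMSO was -2.77 for Ibr + AS, -1.59 for Ibr and -0.63 for AS.

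At 72 h, only Ibr + AS remained apart from DMSO. DMSO libraries were at 8.85, 6.82 and 8.37 CPM and Ibr + AS libraries at 3.14, 3.1 and 2.06 CPM. Ibr libraries were at 7.44, 6.55 and, in the library left out, 8.47 CPM and AS libraries at 5.86, 7.99 and 8.44 CPM, and both overlapped with DMSO. AKAP12 was lower in Ibr + AS than in DMSO (log2 FC -1.52, SE 0.21, 2.88-fold lower, adjusted p = 1.51e-09), than in Ibr (-1.40, SE 0.23, adjusted p = 4.40e-06) and than in AS (-1.42, SE 0.21, adjusted p = 8.05e-08). For Ibr against DMSO the log2 FC was -0.13 (95% interval -0.53 to 0.28, adjusted p = 0.785) and for AS -0.11 (95% interval -0.46 to 0.25, adjusted p = 0.821).

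The effect of Ibr on AKAP12 differed between times. It changed by 0.88 from 24 h to 72 h (SE 0.29, adjusted p = 0.0273), and within Ibr AKAP12 rose over that time by 1.23 (SE 0.23, 2.34-fold, adjusted p = 7.79e-05). The first of these did not pass without p121 (0.92), without p128 (0.62) or without the passage block (0.83, adjusted p = 0.0693). For Ibr + AS the change was 0.17 (95% interval -0.46 to 0.79, adjusted p = 0.862). In DMSO, AKAP12 had a log2 FC of 0.33 from 24 h to 72 h (SE 0.14, adjusted p = 0.0502), and in AS it rose by 0.59 (SE 0.19, adjusted p = 0.0438). The rise in AS did not pass without the passage block (0.60, adjusted p = 0.0785), with filterByExpr, an edgeR filter on low counts (0.59, adjusted p = 0.0540), without p126 (0.57) or without p128 (0.45). In Ibr + AS the log2 FC was 0.51 (SE 0.26, adjusted p = 0.261), and it passed without p128 (1.07, adjusted p = 0.0104).

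NEBL was high in Ibr alone. At 24 h, DMSO libraries of p121, p126 and p128 were at 1.76, 1.70 and 1.41 CPM and Ibr libraries at 4.58, 4.11 and 3.28 CPM. AS libraries were at 1.28, 1.70 and 1.21 CPM and Ibr + AS libraries at 1.69, 2.21 and 2.25 CPM. Ibr lay above the other 3 groups without overlap, and both AS and Ibr + AS overlapped with DMSO.

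Relative to DMSO at 24 h, NEBL rose with Ibr (log2 FC 1.28, SE 0.25, 2.42-fold, adjusted p = 8.57e-05). With Ibr + AS the log2 FC was 0.33 (95% interval -0.22 to 0.88, adjusted p = 0.432) and with AS -0.22 (95% interval -0.81 to 0.37, adjusted p = 0.841). Ibr + AS was lower than Ibr by a log2 FC of -0.95 (SE 0.25, adjusted p = 0.00200), which did not pass without p121 (-0.73, adjusted p = 0.0565). Against AS it was 0.55 (SE 0.29, adjusted p = 0.183).

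At 48 h, NEBL was at 2.18, 1.66 and 1.16 CPM in DMSO and at 5.96, 4.17 and 3.93 CPM in Ibr. AS libraries were at 1.56, 1.48 and 0.817 CPM and Ibr + AS libraries at 0.719, 1.07 and 1.09 CPM. Ibr again lay above all other groups, and all 3 Ibr + AS libraries lay below the DMSO libraries. The log2 FC against DMSO was 1.51 for Ibr, -0.35 for AS and -0.77 for Ibr + AS.

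At 72 h, NEBL was at 0.749, 0.934 and 0.894 CPM in DMSO and at 5.40, 6.45 and, in the library left out, 3.84 CPM in Ibr. AS libraries were at 0.541, 0.989 and 1.27 CPM and Ibr + AS libraries at 0.864, 1.30 and 0.934 CPM. Only Ibr was apart from DMSO. NEBL rose with Ibr by a log2 FC of 2.71 (SE 0.30, 6.54-fold, adjusted p = 4.99e-13), rank 217 from the top, and by 2.59 with all 36 libraries (adjusted p = 3.68e-13). With Ibr + AS the log2 FC was 0.26 (95% interval -0.48 to 1.00, adjusted p = 0.686) and with AS 0.18 (95% interval -0.56 to 0.91, adjusted p = 0.888). Ibr + AS was lower than Ibr by a log2 FC of -2.45 (SE 0.29, 5.46-fold, adjusted p = 6.39e-11). Against AS it was 0.08 (95% interval -0.64 to 0.81).

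The effect of Ibr on NEBL was larger at 72 h than at 24 h, by 1.43 (SE 0.40, adjusted p = 0.00683). Within Ibr the log2 FC from 24 h to 72 h was 0.49 (SE 0.24, adjusted p = 0.309), and in DMSO NEBL fell by 0.97 (SE 0.32, adjusted p = 0.00841). The change of the effect did not pass without p126 (1.34, adjusted p = 0.110), where Ibr 72 h is left with 1 library that is assumed to vary like the other groups. The fall in DMSO did not pass without p121 (-0.78), without p126 (-0.97) or with DESeq2 (-0.94, adjusted p = 0.109). Within Ibr + AS, NEBL also fell from 24 h to 72 h, by 1.01 (SE 0.32, adjusted p = 0.0237). It did not pass without p121 (-1.0), without p126 (-1.16), without p128 (-0.88) or with only the 2 groups compared (-0.99, adjusted p = 0.147).

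**Figure D2:**
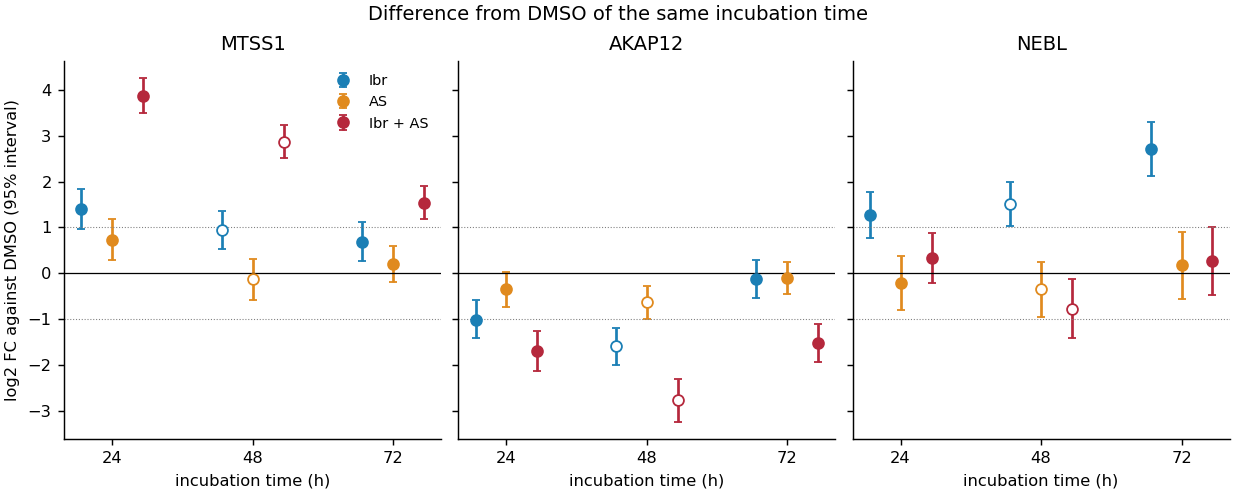
Fitted log2 FC against DMSO of the same incubation time with 95% intervals, for Ibr, AS and Ibr + AS. Filled points were tested, open points at 48 h are a description, and dotted lines mark a log2 FC of 1 and -1. The Ibr + AS points of MTSS1 go from 3.87 at 24 h to 1.54 at 72 h, while the Ibr points of NEBL go from 1.28 to 2.71.

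The calls of the 3 genes stand beside a broad response. Passing means an adjusted p of at most 0.05. The shares of all genes, here and below, were not matched to the 3 genes for abundance. At 24 h, all 3 genes passed for Ibr, where 9.13% of all genes tested did, and 2 of 3 passed for Ibr + AS (34% of all genes). For AS 0 of 3 passed with edgeR (2.52% of all genes), 1 of 3 had an unadjusted p under 0.05 and 1 of 3 passed with DESeq2, in both cases MTSS1. At 72 h, 2 of 3 passed for Ibr (17.6%) and 2 of 3 for Ibr + AS (28.6%). For AS at 72 h 0 of 3 passed with edgeR (13.2%) and with DESeq2, and 0 had an unadjusted p under 0.05 with either. The share of genes that passed was 19.4% for Ibr + AS against Ibr at 24 h, where 3 of 3 passed, and 7.09% at 72 h, where again 3 of 3 did. Against AS, 2 of 3 passed at 24 h (24.8%) and 2 of 3 at 72 h (15.5%). The change of the effect from 24 h to 72 h passed for 2 of 3 with Ibr (14.4%), for 1 of 3 with Ibr + AS (24.6%) and for 0 of 3 with AS (8.32%), where 0 had an unadjusted p under 0.05 with edgeR or DESeq2. From 24 h to 72 h, 2 of 3 passed in DMSO (38%), 1 of 3 in Ibr (4.47%), 1 of 3 in AS (5.93%) and 2 of 3 in Ibr + AS (9.66%). The median log2 FC over all genes stayed within 0.06 of 0 in each of these comparisons, and within 0.07 with RLE factors. These comparisons share their DMSO libraries.

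The 3 genes also differed in how Ibr + AS related to the single drugs. This was read as the departure of the Ibr + AS log2 FC from the sum of the log2 FCs of Ibr and AS. The DMSO concentration of the single-drug groups is not stated, and a part of it in the departure was not tested. For MTSS1 at 24 h the sum was 2.14 and Ibr + AS 3.87, a departure of 1.73 (SE 0.29, adjusted p = 0.000134), with 1.65, 1.82 and 1.68 in p121, p126 and p128. At 72 h the departure was 0.65 (SE 0.28, adjusted p = 0.172), with 0.08 in p121 and 0.80 in p126, and 1.28 in p128 with the Ibr library left out of the fit. Without p121 it passed (0.94, adjusted p = 0.0111). At 48 h the sum was 0.81 and Ibr + AS 2.87.

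For AKAP12 at 24 h the sum was -1.36 and Ibr + AS -1.69, a departure of -0.33 (SE 0.32, adjusted p = 0.784). The passages pointed different ways here, with -1.52, -0.73 and 1.06. At 72 h the sum was -0.23 and Ibr + AS -1.52, a departure of -1.29 (SE 0.30, adjusted p = 0.00139), at -0.63 in p121 and -1.29 in p126, and at -2.01 in p128 with the Ibr library that the fit leaves out. It did not pass without p128 (-1.0, adjusted p = 0.0582).

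For NEBL the departure was negative, since Ibr + AS stayed near DMSO or below it. At 24 h it was -0.73 (SE 0.39, adjusted p = 0.412), with -0.96, -0.87 and -0.32 in the passages. At 72 h the sum was 2.89 and Ibr + AS 0.26, a departure of -2.63 (SE 0.49, adjusted p = 4.18e-05), with -2.12 in p121 and -2.32 in p126, and -2.42 in p128 with the Ibr library left out of the fit. At 48 h the sum was 1.16 and Ibr + AS -0.77. A departure passed for 1 of the 3 genes at 24 h (4.09% of all genes tested) and for 2 of 3 at 72 h (8.02%).

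**Figure D3:**
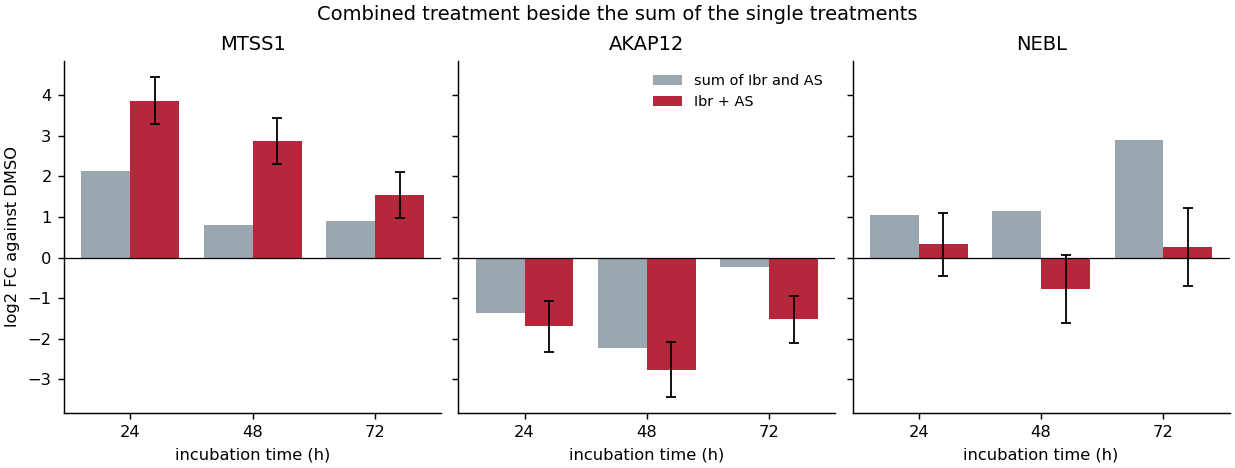
Log2 FC against DMSO for the sum of the single-drug effects (grey) and for Ibr + AS (red). Error bars on the red bars are the 95% interval of the departure from the sum. Ibr + AS exceeds the sum for MTSS1 and lies below it for NEBL. It also lies below it for AKAP12, where at 72 h the sum is -0.23 and Ibr + AS -1.52. The departure did not pass for MTSS1 at 72 h, or for AKAP12 and NEBL at 24 h, and 48 h was not tested.

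Ordered by mean level over all 36 libraries, the 3 Ibr + AS groups were the top 3 for MTSS1 (51.3, 37.8 and 20.2 CPM at 24, 48 and 72 h), and the Ibr groups came next (10.2, 9.80 and 9.23 CPM at 72, 48 and 24 h, with 11.1 CPM at 72 h without the library left out of the fit). Ibr + AS at 24 h and at 48 h overlapped, as did the 3 Ibr groups with each other, and DMSO 24 h was last without overlap with its neighbour. For AKAP12 the 3 Ibr + AS groups were the last 3 (2.76, 1.94 and 1.33 CPM at 72, 24 and 48 h), each overlapping with its neighbour, and DMSO 48 h was first at 9.23 CPM. For NEBL the 3 Ibr groups came first (5.23, 4.69 and 3.99 CPM at 72, 48 and 24 h, with 5.92 CPM at 72 h without the library left out), apart from the rest, and the other 9 groups formed a row in which each overlapped with the next.

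MTSS1 and AKAP12 lay at opposite ends between treatments but not within each of them. Within a treatment, over its 9 libraries of 3 times (the Ibr 72 h p128 library included), Pearson's r of their log2 CPM was 0.74 in DMSO (Spearman's rank correlation 0.80), 0.58 in AS (0.43), 0.13 in Ibr (-0.10) and -0.63 in Ibr + AS (-0.70). Without the 2 libraries farthest from the median of MTSS1, r was 0.33 in DMSO, 0.46 in AS, -0.25 in Ibr and -0.54 in Ibr + AS. MTSS1 and NEBL had r of -0.77 in DMSO, -0.54 in AS, 0.75 in Ibr and 0.59 in Ibr + AS (-0.78, -0.46, 0.77 and 0.44 without such libraries). AKAP12 and NEBL had r of -0.37 in DMSO, -0.34 in AS, 0.30 in Ibr and 0.20 in Ibr + AS. Without the 2 libraries farthest from the median of AKAP12, r was -0.27, -0.59, 0.56 and 0.15. These are descriptions, and the libraries of a treatment differ in time and share passages.

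**Figure D4:**
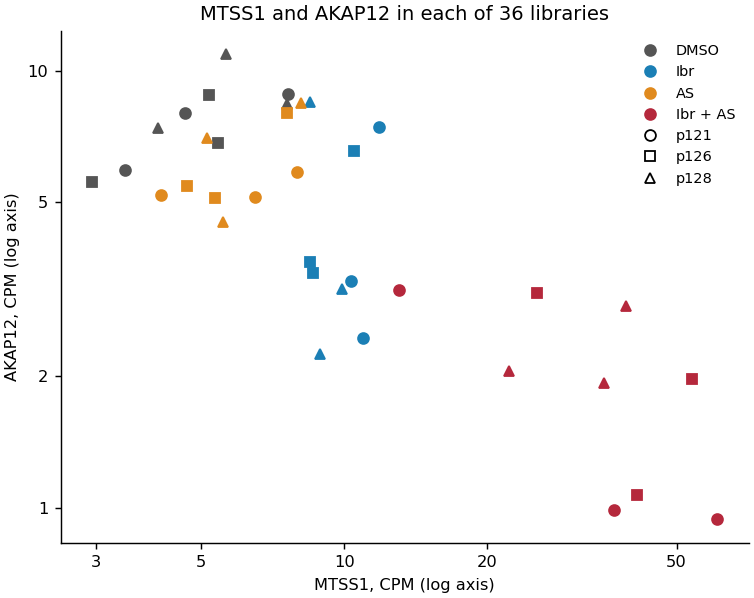
AKAP12 against MTSS1 in CPM, both on log axes, in each of 36 libraries. Colours are treatments and symbols are passages. Ibr + AS libraries lie at the lower right, with MTSS1 at 13.03 CPM or more and AKAP12 at 3.14 CPM or less, and 3 of 9 Ibr libraries, those of 72 h, lie among the DMSO and AS libraries in AKAP12.

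The genes most like each of the 3 were sought among 878 genes with a symbol whose mean was 1 CPM or more. Likeness was Pearson's r of log2 CPM over 35 libraries that share groups and passages. Only 1068 of the 30424 genes could be paired with a symbol, through gene tables of the study. Genes without a symbol were not searched. For MTSS1 the most alike were DGKA, a diacylglycerol kinase (r = 0.961), FGD2 (0.954), and IRF5, a transcription factor of immune cells (0.954). At the other end was CDC23, a subunit of the anaphase-promoting complex (-0.952). Mean levels of FGD2 at 24 h were 28.9 CPM in DMSO, 51.1 in Ibr, 42.9 in AS and 107 in Ibr + AS. For AKAP12 they were TMEM33 (0.929), BEND4 (0.928) and ACO1, an aconitase of the cytosol (0.912), and the lowest was ABRACL, an actin-regulating protein of the costars family (-0.940). For NEBL they were SLC4A4, a sodium bicarbonate transporter (0.704), PTPRJ, a receptor tyrosine phosphatase (0.657), and SASH1 (0.638), and the lowest was MYO1A, a myosin of the membrane cytoskeleton (-0.665). The likeness was thus weaker for NEBL, the gene with the fewest reads.

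Other genes of the actin cytoskeleton were read from a list of 96, of which 35 could be named and tested. Names came from gene tables of the study that rest on these libraries, so the 35 are not an independent sample of the list. With Ibr + AS at 24 h, 10 rose and 3 fell, or 37.1% of the 35 beside 34% of all genes, and the list's median log2 FC was 0.03, as over all genes. The largest rises among genes averaging 1 CPM or more were those of PLEC, a giant cytoskeletal linker (0.81, SE 0.18, adjusted p = 0.000974), ABRACL (0.81, SE 0.13, adjusted p = 5.19e-06) and MYL6B, a myosin light chain (0.68, SE 0.24, adjusted p = 0.0196). The 3 falls were those of PACSIN1, a membrane-bending protein (-0.59, SE 0.11, adjusted p = 6.07e-06), PHACTR2, an actin-binding regulator of a phosphatase (-0.41, SE 0.15, adjusted p = 0.0213), and WASHC5, a subunit of an actin-nucleating complex on endosomes (-0.34, SE 0.09, adjusted p = 0.000641). MTSS1 and AKAP12, with log2 FCs of 3.87 and -1.69, lay outside the range of the 29 listed genes that averaged 1 CPM or more. Both had been chosen for their change with Ibr + AS at 48 h, so this place is not independent of the choice.

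At 72 h more of the actin list passed, but the list and all genes were not matched for abundance. Of the 35 genes, 29 averaged 1 CPM or more. NEBL, with a median of 1.52 CPM, ranked 9959 of 18730 genes by mean CPM. The shares below are therefore not read as a result about actin genes. With Ibr + AS 15 rose and 6 fell, 60.0% beside 28.6% of all genes, with a list median of 0.22 against 0.00. With Ibr 13 rose and 5 fell (51.4% beside 17.6%, median 0.20 against -0.04), and with AS 8 rose and 2 fell (28.6% beside 13.2%). At 24 h Ibr had 3 that rose, or 8.57% beside 9.13% of all genes. AS had 0 that passed with edgeR, beside 2.52% of all genes, while 3 had an unadjusted p under 0.05. In DMSO from 24 h to 72 h, 7 rose and 14 fell (60.0% beside 38%, median -0.15 against 0.02), and DMSO is the group with which the 72 h groups were compared. MYO1A, the gene least like NEBL, was at 1.15 ± 0.404 CPM in DMSO at 24 h and 7.01 ± 0.433 CPM at 72 h (SD, n = 3), and in Ibr at 72 h at 1.89 ± 0.662 CPM over all 3 libraries, with a fitted log2 FC of -2.13 against DMSO (SE 0.29, adjusted p = 1.68e-09).

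**Figure D5:**
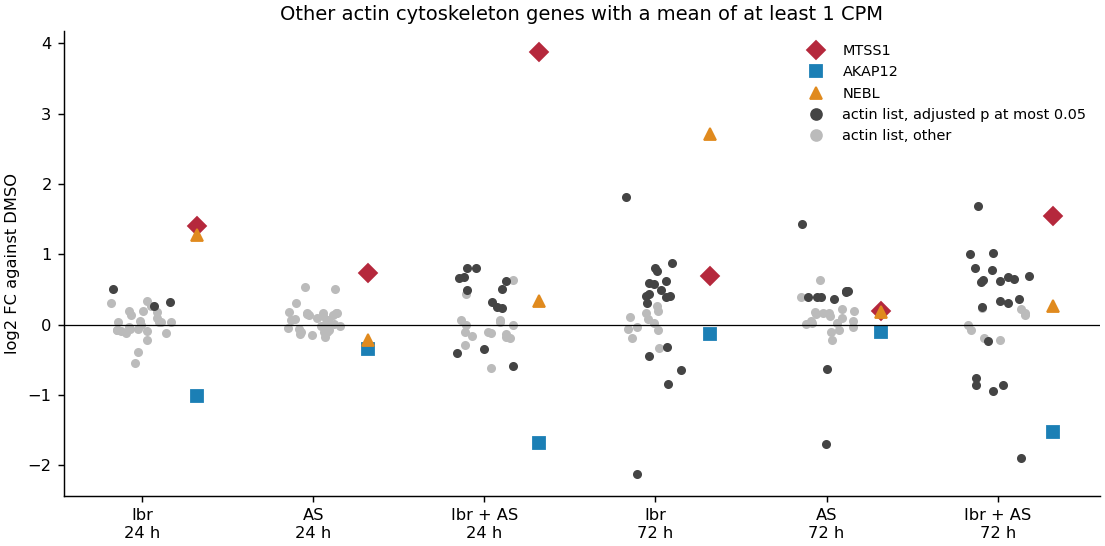
Log2 FC against DMSO at 24 h and 72 h for 29 genes of the actin list averaging 1 CPM or more (dots, dark where the adjusted p was at most 0.05) and for MTSS1, AKAP12 and NEBL (coloured symbols). At 24 h with Ibr + AS, MTSS1 at 3.87 and AKAP12 at -1.69 lie beyond all dots, and at 72 h with Ibr NEBL at 2.71 does. These genes, unlike the dots, were chosen with such results known.

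The partners of AKAP12 were few among named genes. Of 23 genes of cyclic AMP and of protein kinase A or C, 6 were tested. With Ibr + AS, 2 rose and 1 fell at 24 h (50% beside 34% of all genes). At 72 h, 2 rose and 2 fell (66.7% beside 28.6%). These shares were not matched for abundance either. Of 21 relatives of the 3 genes, 3 could be named. AKAP7 and AKAP13, other anchors of protein kinase A, had log2 FCs of 0.18 (adjusted p = 0.350) and -0.10 (adjusted p = 0.862) with Ibr + AS at 24 h, where AKAP12 fell by 1.69. BAIAP2L2, of the membrane-bending family of MTSS1, had a mean of 0.0306 CPM.

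Genes beside the 3 on the chromosome were taken from RefSeq's table of another dog assembly, UU_Cfam_GSD_1.0, from which no coordinates are given. NDUFB9, next to MTSS1, had a log2 FC of 0.36 with Ibr + AS at 24 h (SE 0.13, adjusted p = 0.0254), against 3.87 for MTSS1. ZNF572, on the other side of MTSS1, and the neighbours of NEBL have no values here. MTHFD1L and ZBTB2, on both sides of AKAP12, had log2 FCs of -0.34 (SE 0.09, adjusted p = 0.00111) and -0.36 (SE 0.10, adjusted p = 0.00153) beside -1.69 for AKAP12. Of all genes tested, 34% passed for Ibr + AS against DMSO at 24 h and 28.6% at 72 h. At 72 h MTHFD1L was lower than in DMSO (-0.51, SE 0.09, adjusted p = 1.17e-06), as AKAP12 was, and ZBTB2 was higher (0.51, SE 0.10, adjusted p = 1e-05). There, 1 long non-coding gene overlaps AKAP12, 2 overlap NEBL and 0 overlap MTSS1. Whether reads were counted by strand is not stated, so reads of such overlapping genes and of AKAP12 or NEBL cannot be told apart.

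None of the 3 genes passed for a difference between passages in the fit (adjusted p between 0.371 and 0.975), and the farthest apart was AKAP12 in p128 against p121 (0.23, SE 0.11). In these comparisons 361 and 384 of 18670 genes passed for p126 and p128 against p121. Numbers in the table's header divide the libraries into 2 sequencing runs, an inference, with p121 in the first, p128 in the second and p126 in both. Within a passage, all 24 h libraries shared a run, as did all 72 h libraries, so the within-passage differences above at 24 h and at 72 h lie within a run. At p126 the 48 h libraries of DMSO and Ibr were in the first run and those of AS and Ibr + AS in the second, and all 24 h libraries were in the first and all 72 h libraries in the second. Values at 48 h and changes from 24 h to 72 h therefore cross runs at p126. With the run as a further term, 0 of the 57 calls of the 3 genes changed, and the log2 FCs with Ibr + AS at 24 h were 3.87 for MTSS1, -1.69 for AKAP12 and 0.33 for NEBL, as without it.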

How the data were processed

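Poly-A RNA of 36 CLBL-1 libraries was sequenced with single-end reads. The authors mapped reads to CanFam3.1 with STAR 2.7.5a, counted them per Ensembl gene and deposited 1 table of raw counts, in whole reads. Which strand column was kept is not given in the sources used here.

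The main tool was edgeR 4.0.16, run under R 4.3.3 together with limma 3.58.1. Genes with at least 2 reads over a fit were kept. A robust quasi-likelihood fit with TMM factors held passage and 12 groups as terms in 35 libraries (18670 genes), and the DMSO times were compared in 9 libraries (16468 genes). SE is the log2 FC divided by the root of F. CPM is TMM-scaled, and log2 CPM has a prior count of 1. p-values were adjusted by Benjamini-Hochberg over all genes of a fit.

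Alternatives were RLE factors, filterByExpr, no passage block, all 36 libraries, only the groups compared, the 35 libraries for DMSO, each passage left out, DESeq2 1.42.0, and the sequencing run as a term. The run term, and all alternatives for 72 h against 24 h within Ibr, AS and Ibr + AS, were added after the data were seen. The procedure was tested on simulated data.

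The 3 genes and the lists were chosen with earlier results of these data known. Named genes are the 3, the 3 most alike and the 1 least alike of each, relatives with a symbol, and the 3 largest rises and falls of the actin list with Ibr + AS at 24 h, beside listed cell-type markers with a symbol. Chromosomal neighbours were added outside this rule, by position. Symbols came from the study's gene tables, through which 1068 genes could be paired with a symbol here. No sequence is shown. A further gene list is not reported here. Deviations from group means had a median r of 0.116 between libraries that share a passage (187 pairs, 8101 genes) and of -0.0421 between others (374 pairs). Per the labels same-numbered libraries come from cells of the same passage, apart from DMSO 24 h replicate 3, whose label fields disagree.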

Additional observations from a re-analysis of the deposited data

Results flagged for a closer look

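For 3 results the effect of a treatment differed between 24 h and 72 h by a test of the difference itself (edgeR quasi-likelihood contrast, adjusted over 18670 genes). The effect of Ibr + AS on MTSS1 changed by -2.33 (adjusted p = 7.30e-09), beside 24.6% of genes that passed this contrast, and was smaller at 72 h in 3 of 3 passages. The effect of Ibr on NEBL changed by 1.43 (adjusted p = 0.00683) and that on AKAP12 by 0.88 (adjusted p = 0.0273), beside 14.4% of genes. Both went this way at p121 and p126, and also at p128 with the Ibr 72 h library that the fit leaves out. Neither change passed in every alternative, and for AKAP12 the call was lost without p128 and without the passage block. The corresponding changes for AS were -0.53 for MTSS1, 0.25 for AKAP12 and 0.40 for NEBL, beside 8.32% of genes, and 0 of 3 passed with edgeR.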

How the results depend on the processing

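Over the 19 comparisons tested for each gene, MTSS1 kept its direction and its side of the threshold in most alternatives and was reversed in none, AKAP12 was reversed in 3 and NEBL in 4 of them, each time when a passage was left out and with a value that had not passed. The limits are the few reads of NEBL and AKAP12 and the 3 passages. Causes were not tested.

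Leaving out 1 passage in turn gave a range of 0.65 to 0.83 for MTSS1 with AS at 24 h, 0.57 to 1.20 for MTSS1 in Ibr + AS against Ibr at 72 h, and 0.46 to 0.94 for its departure at 72 h. For AKAP12 it gave -1.21 to -0.33 for Ibr + AS against Ibr at 24 h, -0.99 to 0.09 for the departure at 24 h, -0.25 to 0.10 for AS at 72 h, -1.53 to -1.0 for the departure at 72 h, 0.62 to 1.15 for the change of the Ibr effect and -0.17 to 0.64 for that of Ibr + AS. For NEBL it gave -1.13 to -0.73 for Ibr + AS against Ibr at 24 h, -0.10 to 0.30 for AS at 72 h, -0.08 to 0.45 for Ibr + AS against AS at 72 h (-0.04 without p121), 1.34 to 1.56 for the change of the Ibr effect, -0.24 to 0.21 for that of Ibr + AS and -1.11 to -0.78 for DMSO at 72 h. From 24 h to 72 h it gave 0.45 to 0.77 for AKAP12 in AS, 0.07 to 1.07 for AKAP12 in Ibr + AS and -1.16 to -0.88 for NEBL in Ibr + AS, which passed in none of the 3. Without p121 or p126, Ibr 72 h has 1 library.

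With RLE factors, AKAP12 in Ibr + AS against Ibr at 24 h did not pass (-0.67, adjusted p = 0.0531), and AKAP12 in DMSO at 72 h passed (0.34, adjusted p = 0.0397), as it did with filterByExpr (0.35, adjusted p = 0.0457), where AKAP12 from 24 h to 72 h in AS did not (0.59, adjusted p = 0.0540). With only the groups compared, MTSS1 with AS at 24 h (0.73) and the change of its Ibr effect (-0.68) passed, and AKAP12 in Ibr + AS against Ibr at 24 h did not (-0.69, adjusted p = 0.0772), nor did MTSS1 (-1.36) and NEBL (-0.99) from 24 h to 72 h in Ibr + AS. With all 36 libraries, the change of the Ibr effect on MTSS1 passed (-0.85). With DESeq2, MTSS1 with AS at 24 h passed (0.73) and NEBL in DMSO at 72 h did not (-0.94). Without the replicate block, AKAP12 lost the calls of Ibr + AS against Ibr at 24 h (-0.66), of the change of the Ibr effect (0.83) and of 72 h against 24 h in AS (0.60), and the block changed no other call of the 3 genes in the 19 comparisons. The run as a term changed 0 of the 57 calls.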
